A study of Mus musculus with 4 samples.

Results

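The nuclear genes for the 5 enzyme complexes of oxidative phosphorylation were followed across the cell types of 4 mouse medulloblastomas, a malignant tumour of the cerebellum. They were chosen by name alone: symbols of Nduf followed by a, b, c, s or v and a number (complex I), Sdha to Sdhd (complex II), those beginning with Uqcr (complex III), Cox followed by a number from 4 to 8 and a, b or c (complex IV), and those beginning with Atp5 (complex V), with names of pseudogenes and provisional Gm models left out. This gave 82 of the 33219 gene symbols listed in any of the 4 libraries, of which 37 were named for complex I, 4 for complex II, 8 for complex III, 16 for complex IV and 17 for complex V. The libraries of tumours 1 to 4 listed 82, 79, 78 and 80 of them, and 78 were listed in all 4. The name rule also caught Atp5s and Atp5sl, which are assembly or coupling factors and not subunits, and missed some subunits with other names, among them Cyc1, Cox4i1, Cox4i2 and Ndufab1, which were kept as references. Ndufa4 is named for complex I but is now placed in complex IV. The 13 mRNAs transcribed inside the mitochondrion, whose symbols begin with mt-, served only as a reference.

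Complexes I and II pass electrons from NADH and succinate to ubiquinone, complex III passes them on to cytochrome c, and complex IV hands them to oxygen. Complexes I, III and IV pump protons as they do so, and complex V uses the proton gradient to make ATP. Apart from complex II, each complex joins nuclear-encoded subunits, imported from the cytosol, to subunits made inside the mitochondrion, and several complex IV subunits exist as alternative forms for muscle, testis or other tissues. In the developing cerebellum, granule neuron progenitors divide under sonic hedgehog signalling, which Ptch1 restrains, and are the cells from which this tumour class arises.

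All 4 tumours formed a single group. They were untreated SHH-subgroup tumours taken at end point, the mice carried the Ptch1+/- genotype and had been irradiated at birth, and the animals' ages were not given. Cell suspensions had been frozen, thawed, stained with a dye for dead cells and sorted for live cells before 10x Genomics single-cell RNA sequencing. The labels number the tumours 1 to 4 without saying that each came from another mouse, so the spread between them may not be a spread between animals, and no normal cerebellum or treated group was part of the series.

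The libraries held 798, 2589, 1229 and 1893 cells with a median of 15284, 7754, 6799 and 7825 unique molecular identifiers (UMIs, each a tag of 1 captured molecule) per cell, and shared 0 to 7 cell barcodes per pair. After removal of 100 likely doublets, 6409 cells fell into 22 clusters. Clusters were named from marker lists, with the 82 genes kept out of the clustering. Progenitor-like cells, the sum of a granule progenitor-like and a cycling-like class, numbered 446, 1845, 933 and 314 in tumours 1 to 4. Of these, 227, 1017, 542 and 2 were granule progenitor-like and 219, 828, 391 and 312 were cycling-like. Neuron-like cells numbered 49, 480, 181 and 292, and myeloid-like cells (macrophages and microglia) 82, 120, 12 and 461. Tumour 4 stood apart. Its progenitor-like and neuron-like cells lay almost wholly in 2 clusters holding no cell of another tumour, its granule progenitor markers summed to 2357 CPM (the usual scaling of a gene's UMIs to all UMIs of a class in a tumour) in progenitor-like cells against 3390 to 6248 in the others, and its neuron markers to 3736 CPM in neuron-like cells against 6695 to 14771. The counts of members called in comparisons that include tumour 4 are therefore also given without it.

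Summed over the 82 genes, progenitor-like cells gave 29834, 27328, 26050 and 31722 CPM in tumours 1 to 4, or 28734 ± 2538 (SD, n = 4). Neuron-like cells gave 28141, 27057, 25369 and 27392 CPM, below the progenitor-like cells of their own tumour in 4 of 4 tumours. That gap was widest in tumour 4, whose progenitor-like cells were almost all cycling-like. It was smaller than the SD between tumours in the other 3. Myeloid-like cells gave 21770, 19920, 25407 and 21037 CPM, below both in tumours 1, 2 and 4. In tumour 3, where the class had 12 cells, they lay at the level of the neuron-like cells. Cells of the oligodendrocyte lineage-like class reached 36079, 33030, 29255 and 30054 CPM, from 10, 16, 40 and 41 cells. The 10 cells of tumour 1 had a median of 58142 UMIs against 15284 over that library, and the part of this in their value was not tested. The highest sum, 48615 CPM, was in 49 muscle-like cells found only in tumour 1. Mitochondrial mRNAs followed another order: 35732, 29336, 35650 and 41458 CPM in progenitor-like cells, 38323, 33503, 37902 and 45684 CPM in neuron-like cells, and 23885, 22357, 28954 and 20170 CPM in myeloid-like cells. Neuron-like cells were thus higher than progenitor-like cells for the mitochondrial mRNAs in all 4 tumours and lower for the nuclear genes. No test was made on these sums.

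**Figure D1:**
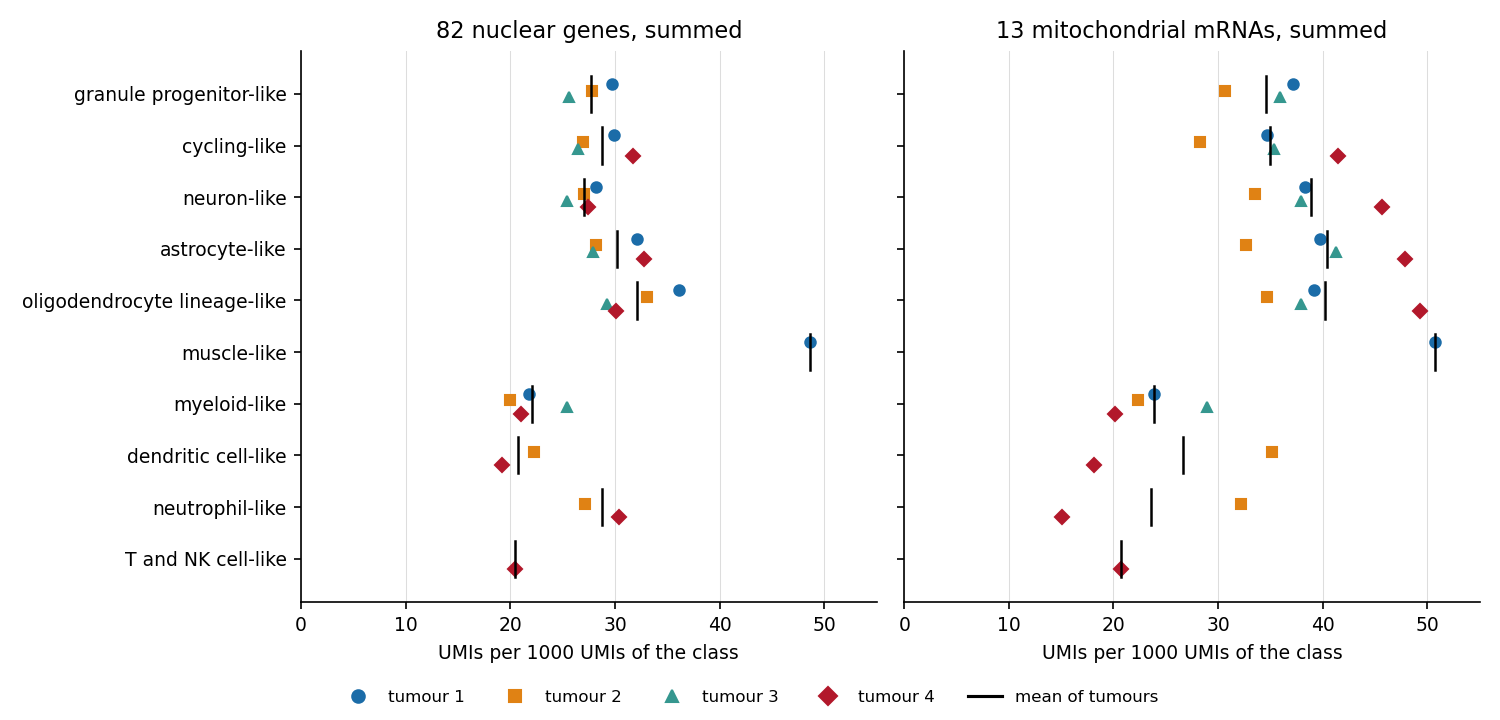
Summed UMIs of the 82 nuclear oxidative phosphorylation genes (left) and of the 13 mitochondrial mRNAs (right), per 1000 UMIs, in each class with at least 10 cells. Points are tumours and bars are the mean over tumours; the muscle-like class of tumour 1 lies farthest right in both panels and the myeloid-like class lies left of the progenitor-like and neuron-like classes for the nuclear genes, apart from tumour 3.

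Within progenitor-like cells the members with the largest UMI share in each complex were Ndufa4 and Ndufa2 (complex I by name), Sdhb and Sdha (II), Uqcrh and Uqcr11 (III), Cox7c and Cox8a (IV), and Atp5b and Atp5j (V). A UMI tags a molecule and not a length of it, so these shares were not divided by transcript length, and capture may differ between genes. Ndufa4 (chromosome 6, 11900292 to 11907497, GRCm38) gave 1225 ± 279 CPM and Atp5b, the catalytic beta subunit of ATP synthase (chromosome 10, 128083273 to 128090391), 1093 ± 128 CPM (SD, n = 4 tumours). Cox7c and Cox8a, small subunits of cytochrome c oxidase, gave 974.98 ± 175 and 925 ± 153 CPM. Uqcrh, the hinge protein of complex III, gave 721 ± 95.9 CPM. The 4 Sdh genes were lower: Sdhb, the iron-sulfur subunit, gave 203 ± 13.8 CPM and Sdhd, a membrane anchor, 113 ± 14.2 CPM.

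Most of the 76 members detected well enough to be tested varied little between tumours. Their median SD over the 4 tumours in progenitor-like cells was 0.17 on the log2(CPM + 10) scale, against 0.23 over all 9981 genes tested and 0.23 over the 2948 of these at 50 CPM or more. Ndufs7, a core complex I subunit, had the smallest SD, 0.053, with 175, 191, 181 and 179 CPM in tumours 1 to 4. Tumour 4 was the highest of the 4 for 42 of the 76 and tumour 3 the lowest for 40. How many of all 9981 genes were highest or lowest in these tumours was not counted, so this is no trait of the members. The progenitor-like class of tumour 4 was also made up differently, of 312 cycling-like and 2 granule progenitor-like cells. The part of that in the order of tumours was not tested.

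Atp5g2, Atp5l and Sdha stood out from this with SDs of 1.21, 0.85 and 0.60. Atp5g2 (chromosome 15, 102662864 to 102672352) is 1 of the 3 genes, with Atp5g1 and Atp5g3, that encode the same mature c-subunit of the ATP synthase rotor. It gave 160, 21, 20.4 and 75.9 CPM in progenitor-like cells, so tumour 1 lay far above tumours 2 and 3. The same order of tumours held in neuron-like cells (113, 14, 11.1 and 56.0 CPM) and in myeloid-like cells (86.1, 16.7, 11.3 and 32.1 CPM). Atp5g1 also had its highest value in tumour 1 but spanned far less, at 581, 505, 501 and 539 CPM, and Atp5g3 gave 259, 214, 185 and 264 CPM. Atp5l, the g subunit of the ATP synthase membrane part (chromosome 9, 44912557 to 44920742), gave 620, 159, 190 and 325 CPM in progenitor-like cells and 558, 168, 226 and 282 CPM in myeloid-like cells. Its pseudogene Atp5l-ps1 was listed in tumour 1 alone, with 4 UMIs, and no source used here says how reads matching both were assigned, so the level of Atp5l is uncertain. Tumour 1 was also the deepest library and listed the most genes. The part of either in these differences was not tested.

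Sdha, the flavoprotein of succinate dehydrogenase (chromosome 13, 74322254 to 74350280), was high in tumour 2 and not in tumour 1, with 107, 211, 107 and 70.8 CPM in progenitor-like cells. Neuron-like cells repeated this with 96.9, 176, 79.6 and 66.0 CPM, and astrocyte-like cells with 83.1, 222, 121 and 84.2 CPM. In myeloid-like cells the 4 tumours lay closer together, at 133, 138, 113 and 117 CPM. Sdhb, its partner in the soluble part of the complex, gave 214, 211, 205 and 183 CPM in progenitor-like cells.

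**Figure D2:**
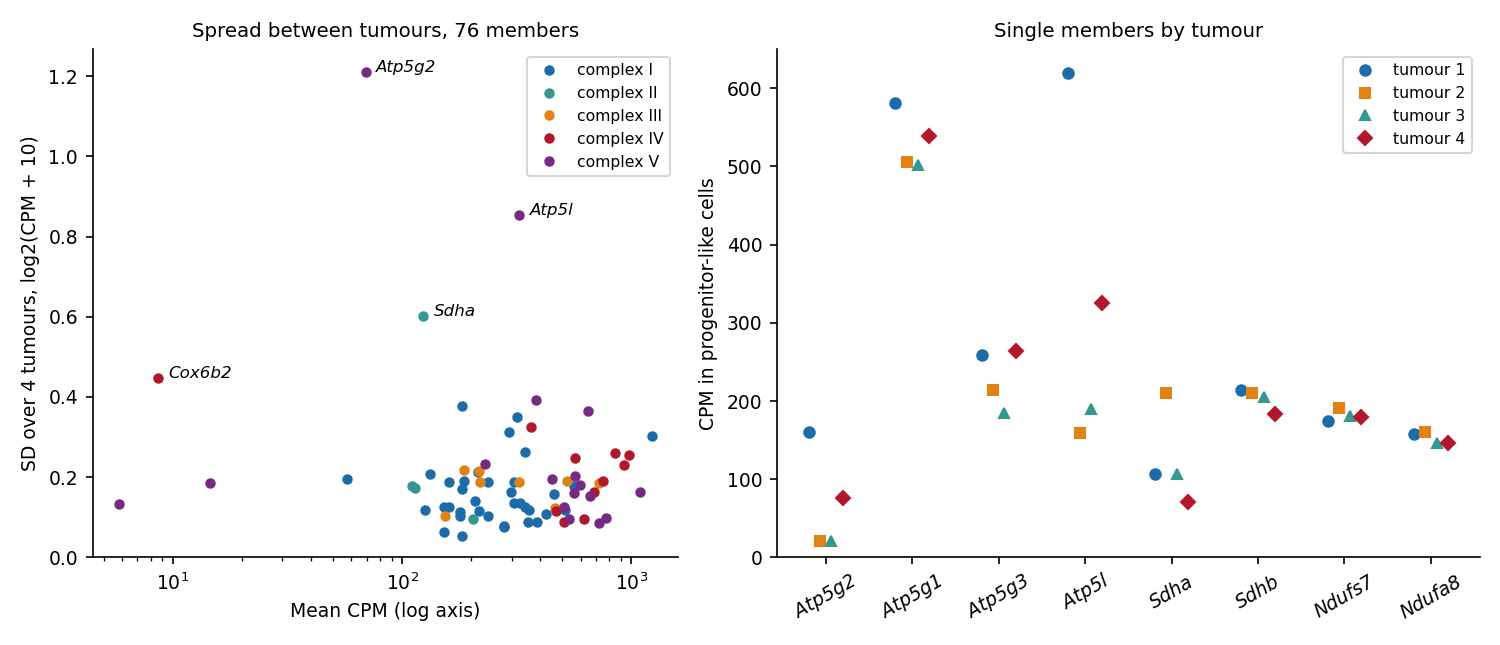
Left, SD over 4 tumours on the log2(CPM + 10) scale against mean CPM (log axis) for the 76 tested members in progenitor-like cells, coloured by complex; Atp5g2, Atp5l and Sdha have SDs of 1.21, 0.85 and 0.60 and stand above the rest. Right, CPM of 8 members in the progenitor-like cells of each tumour; Atp5g2 and Atp5l are highest in tumour 1, Sdha in tumour 2.

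Promoter sequences (250 bases before to 50 after the start, RefSeq, GRCm38.p6) were matched for 69 of the 82 genes. They were searched on both strands for letters bound by factors known to act on mitochondrial genes. The NRF1 palindrome, whose letters are those in capitals in the Cox6a1 window, occurred in 5 of 69 (7.25%, against 1.47% of 17492 protein-coding promoters), the ETS letters CCGGAAG, read by the factor GABP, in 16 (23.2% against 12.9%), the YY1 letters AAGATGGCG in 8 (11.6% against 2.14%) and the ERR letters TCAAGGTCA in 2 (2.90% against 0.377%). At least 1 of these was found in 27 of 69 members (39.1%) and in 16.05% of all promoters. The windows hold a match, in capitals, for members treated in the comparisons that follow or for Cox6a1, the common form of an isoform set. They run 5′ to 3′ on the gene's strand, which is the minus strand for all 4.
Cox6a1, NRF1 letters, chr5:115349086-115349145: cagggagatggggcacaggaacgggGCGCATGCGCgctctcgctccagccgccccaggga
Ndufb6, ETS letters, chr4:40279622-40279671: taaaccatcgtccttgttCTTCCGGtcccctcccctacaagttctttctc
Atp5e, ETS letters, chr2:174464172-174464228: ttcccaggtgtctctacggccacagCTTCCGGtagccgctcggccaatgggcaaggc
Atp5g3, ERR letters, chr2:73911345-73911403: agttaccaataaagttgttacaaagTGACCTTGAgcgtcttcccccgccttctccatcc
In the last 3 the capitals are the letters as read from the other strand. The match began 232 bases before the start in Ndufb6, 102 before it in Atp5e and 52 before it in Atp5g3. Atp5g2 held the NRF1 letters. No binding was measured here, so a match is a description of the sequence only.

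The first comparison set neuron-like cells against progenitor-like cells of the same tumours. The former carried neuronal markers and the latter granule progenitor or mitotic ones. In tumour 4 the progenitor-like class was 312 cycling-like and 2 granule progenitor-like cells, so the contrast there was almost wholly with mitotic cells. Of the 76 members tested, 10 fell and 1 rose in neuron-like cells (limma with tumour as a block, Benjamini-Hochberg adjusted p under 0.05 over 9981 genes). Over all genes tested 32.5% were called, 11.8% lower and 20.6% higher. With these summed UMIs the members' 13.2% lower was near the background and their 1.32% higher was below it. The members' median difference was -0.05 on the log2(CPM + 10) scale and that of all genes 0.06. The members that fell came from every complex but complex II: 4 in complex I, 1 in III, 2 in IV and 3 in V. The share called lower depended on the measure. Means over cells of the deposited log2 values called 23 of 76 members lower against 1223 of 9981 genes. The medians there were -0.17 for the members and -0.005 for all genes. Means of cells thinned to 4900 UMIs each called 6 members lower against 855 genes.

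Ndufa12, an accessory subunit of the NADH-oxidising arm of complex I (chromosome 10, 94198720 to 94221443), gave 390, 337, 367 and 419 CPM in neuron-like cells of tumours 1 to 4 against 525, 476, 482 and 569 CPM in progenitor-like cells. The groups did not overlap, and the difference was -0.43 ± 0.07 (SE, adjusted p = 0.00151). Atp5g1, the c-subunit gene with the largest UMI share, gave 410, 373, 402 and 431 CPM against 581, 505, 501 and 539 CPM, also without overlap, a difference of -0.39 ± 0.07 (adjusted p = 0.00338). Atp5g2 changed in the same direction within each tumour, as 113 against 160, 14 against 21, 11.1 against 20.4 and 56.0 against 75.9 CPM, a difference of -0.43 ± 0.10 (adjusted p = 0.00902), although its groups overlapped because of the spread between tumours. Atp5g3, the remaining c-subunit gene, gave 233, 233, 193 and 219 CPM against 259, 214, 185 and 264 CPM, and its difference of -0.06 ± 0.09 did not pass (adjusted p = 0.641).

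Uqcrq, a small subunit of complex III (chromosome 11, 53427922 to 53430831), gave 357, 333, 388 and 367 CPM in neuron-like cells against 482, 409, 473 and 500 CPM, with no overlap and a difference of -0.36 ± 0.07 (adjusted p = 0.00503). Cox5a, a nuclear subunit of cytochrome c oxidase (chromosome 9, 57521274 to 57532426), gave 481, 504, 365 and 489 CPM against 568, 612, 437 and 649 CPM, a difference of -0.29 ± 0.07 (adjusted p = 0.0115). In Cox5a tumour 3 was the lowest in both classes, so the groups overlapped while each tumour moved the same way. Ndufb6 (-0.31), Ndufa2 (-0.30), Cox7b (-0.26), Ndufc2 (-0.26) and Atp5e (-0.25) also fell, each in 4 of 4 tumours, with adjusted p between 0.0113 and 0.0311.

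No Sdh gene passed the test here, and their differences ran from -0.21 ± 0.09 in Sdha to 0.02 ± 0.08 in Sdhb. The largest positive difference in any member, 0.24 ± 0.11 in Atp5sl, did not pass either (adjusted p = 0.128). Among the related lists, 5 of 10 tested electron carriers, exchangers and further subunits fell and 0 rose (limma; 6 of 10 had an unadjusted p under 0.05). Cytochrome c, Cycs, was 0.46 ± 0.07 lower (adjusted p = 0.00130), the ADP/ATP exchanger Slc25a5 was 0.47 ± 0.08 lower (adjusted p = 0.00192) and Ndufab1 was 0.23 ± 0.07 lower (adjusted p = 0.0311). Of 16 tricarboxylic acid cycle genes 1 rose and 2 fell, of 18 glycolysis genes 5 rose and 7 fell, and of 38 assembly factors 4 rose and 3 fell. Of 12 mitochondrial mRNAs tested, mt-Co1 rose by 0.33 ± 0.06 (adjusted p = 0.00311) and the others did not pass. Cytosolic ribosomal protein genes, which take a large share of UMIs, fell in 72 of 83 cases, with a median of -0.29. Neuron-like and progenitor-like cells had a median of 15130 and 13957 UMIs in tumour 1, 5565 and 8537 in tumour 2, 4834 and 7056 in tumour 3, and 11719 and 6775 in tumour 4. The part of depth in the members' differences was not tested apart from 1 alternative: the mean log2 value of cells thinned to 4900 UMIs each called 7 members, 6 lower and 1 higher, all 7 among the 11.

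Without tumour 4 the comparison called 13 members, 11 lower and 2 higher, and these included all 11. Without tumour 1 it called 4 and without tumour 3 it called 3, all lower. Over all 9981 genes the calls moved too, from 3241 to 4005 without tumour 4, 2025 without tumour 1 and 1793 without tumour 3. Centring each tumour's differences on the median gene gave 14 lower and 0 higher, 10 of them among the 11, and moved the split over all genes from 2060 higher and 1181 lower to 1738 and 1675.

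The second comparison set cycling-like cells, which carry mitotic genes, against granule progenitor-like cells. The granule progenitor-like class included a cluster led by DNA replication genes such as Mcm2, Mcm4, Mcm5 and Mcm6, so it was not made of resting cells alone. The comparison used tumours 1 to 3, since tumour 4 had 2 granule progenitor-like cells. The cycling-like cells are part of the progenitor-like class of the first comparison, so the 2 sets of differences share cells and are given side by side only. Of the 76 members tested, 10 rose and 8 fell in cycling-like cells. Over all 9929 genes tested 31.4% were called, 12.5% higher and 18.9% lower, against 13.2% and 10.5% of the members. The members' median difference was -0.01 and that of all genes -0.04. Every called member changed by less than 0.45 on the log2(CPM + 10) scale, and all but Atp5sl by less than 0.25.

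Cox5a rose in each tumour, with 599, 653 and 479 CPM in cycling-like cells against 525, 564 and 393 CPM in granule progenitor-like cells of tumours 1 to 3, a difference of 0.22 ± 0.04 (adjusted p = 0.000215). Cox7a2, the common form of its subunit in tissues other than muscle, gave 793, 750 and 710 CPM against 696, 662 and 587 CPM, with no overlap and a difference of 0.21 ± 0.04 (adjusted p = 0.000240). In complex III, Uqcrq gave 505, 436 and 515 CPM against 449, 378 and 431 CPM (0.21 ± 0.04, adjusted p = 0.000656) and Uqcr10 gave 378, 288 and 328 CPM against 311, 262 and 265 CPM (0.23 ± 0.05, adjusted p = 0.000675). These are small subunits of the complex, and both were higher in 3 of 3 tumours. In complex I, Ndufa2 (0.20), Ndufs5 (0.18), Ndufb6 (0.16), Ndufc2 (0.13) and Ndufa12 (0.12) rose, with adjusted p between 0.000676 and 0.0429. Atp5g2 rose by 0.24 ± 0.07 (adjusted p = 0.0148), from 140, 19.1 and 17.5 CPM to 174, 22.7 and 23.3 CPM.

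The members that fell in cycling-like cells came from complexes I, III, IV and V. Ndufv3, an accessory subunit of the NADH-binding arm, gave 155, 118 and 147 CPM against 190, 147 and 162 CPM, a difference of -0.23 ± 0.05 (adjusted p = 0.00244). Uqcrh fell by 0.17, Atp5c1 (the gamma shaft of ATP synthase) by 0.15, Atp5e (the epsilon subunit) by 0.13 and Atp5a1 (the alpha subunit) by 0.11, with adjusted p between 0.00133 and 0.0332. Atp5b, the catalytic beta subunit, did not pass (-0.05 ± 0.04, adjusted p = 0.281). Cox7a2l, a factor that joins complexes III and IV into supercomplexes, gave 491, 461 and 456 CPM against 565, 520 and 494 CPM, a difference of -0.16 ± 0.04 (adjusted p = 0.00461). Atp5sl had the largest difference, -0.44 ± 0.08 (adjusted p = 0.000385), at a low level of 11.2, 9.87 and 15.1 CPM against 18.3, 18.6 and 23.0 CPM. No Sdh gene passed, and their differences lay between -0.09 and -0.01. The number of falls depended on the measure. With means of the deposited log2 values, 1 member was called lower, Atp5sl at -0.09 (adjusted p = 0.0454). There Ndufv3 stood at -0.07 (adjusted p = 0.369), Cox7a2l at -0.11 (adjusted p = 0.307), Atp5e at -0.06 (adjusted p = 0.582) and Atp5a1 at -0.04 (adjusted p = 0.666). Means of cells thinned to 4900 UMIs each called 7 members lower. Both kinds of mean weight cells equally, and what sets them apart was not tested.

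The plot of 8 members by class shows both patterns within tumours. Cox5a, Uqcrq, Atp5g2, Ndufa2, Ndufb6 and Ndufa12 were lowest in neuron-like, intermediate in granule progenitor-like and highest in cycling-like cells in each of tumours 1 to 3. Ndufv3 and Cox7a2l ran the other way in the same tumours, although neither passed in the neuron-like comparison (adjusted p = 0.201 and 0.110). Over the 76 members tested, 10 climbed in this order in all 3 tumours (13.2%) and 6 descended (7.89%), against 9.65% and 13.01% of the 9668 genes tested in both comparisons. In tumour 4, which has no granule progenitor-like value, Cox5a gave 489 CPM in neuron-like and 650 CPM in cycling-like cells, while Ndufv3 gave 172 and 182 CPM, against the direction of the other 3 tumours.

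**Figure D3:**
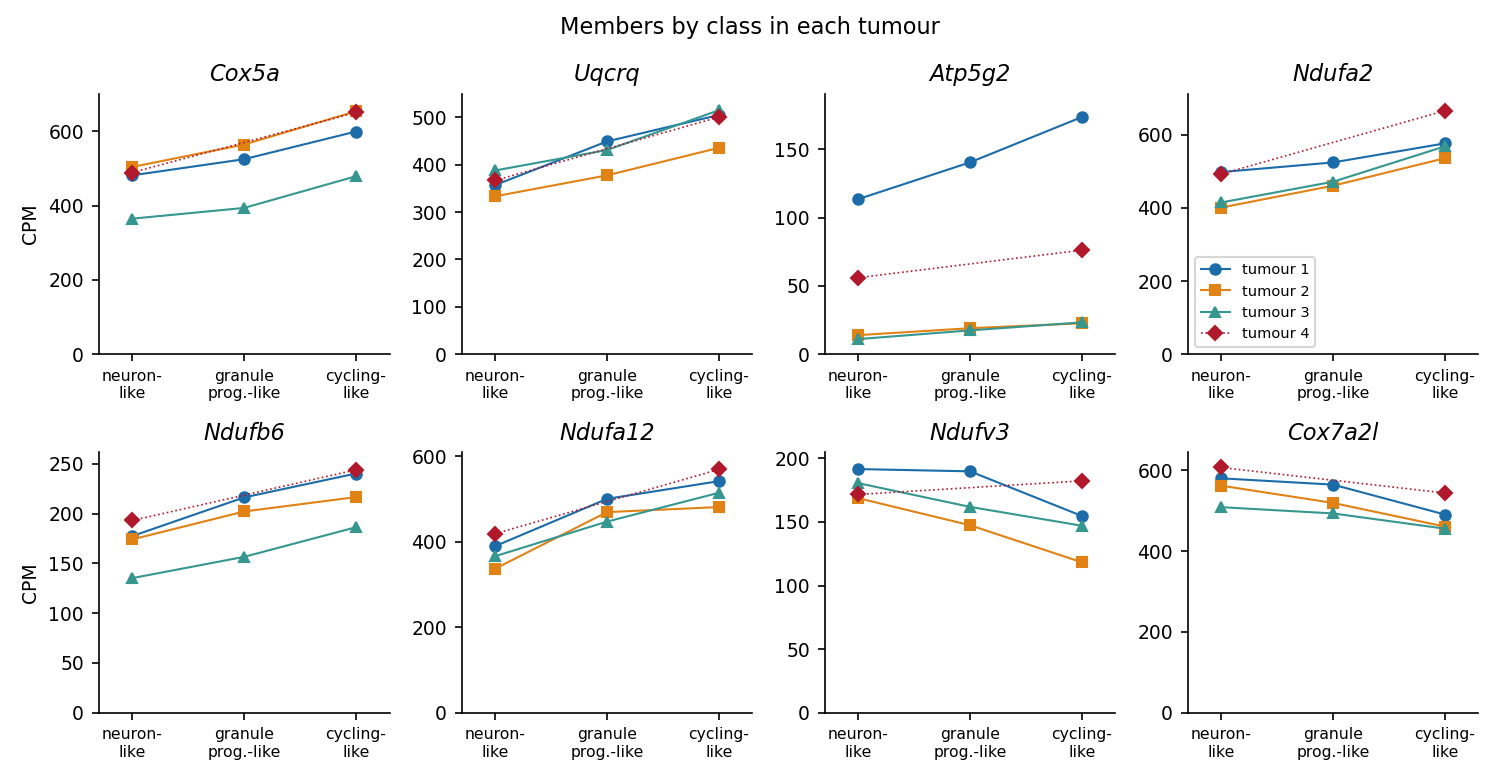
CPM of 8 members in neuron-like, granule progenitor-like and cycling-like cells, 1 line per tumour (tumour 4, dotted, has too few granule progenitor-like cells). The members were picked from those called in the comparisons; in tumours 1 to 3, 6 of them climb from left to right and Ndufv3 and Cox7a2l descend, and Atp5g2 shows tumour 1 well above tumours 2 and 3 throughout.

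Among related genes, Cycs was 0.35 ± 0.04 higher in cycling-like cells (adjusted p = 3.05e-06) and the exchanger Slc25a4 0.26 ± 0.04 lower (adjusted p = 9.63e-06), and 3 of 10 in that list rose and 3 fell. Of 12 mitochondrial mRNAs 5 fell and 0 rose, of 16 tricarboxylic acid cycle genes 0 rose and 3 fell, and of 19 glycolysis genes 1 rose and 11 fell. Cytosolic ribosomal protein genes fell in 62 of 83 cases. Cycling-like cells were deeper, with a median of 16811, 10527 and 8153 UMIs against 11464, 7353 and 6409. With mean log2 values of cells thinned to 4900 UMIs, the comparison called 12 members, 5 higher and 7 lower, so the balance of directions reversed; 10 of the 12 were among the 18. Without tumour 1 it called 9, 5 higher and 4 lower, and without tumour 3 it called 16, 7 higher and 9 lower. Over all 9929 genes the calls went from 3117 to 2818 without tumour 1 and to 2514 without tumour 3. Centring on the median gene gave 14 higher and 5 lower, and over all genes 1572 higher and 1421 lower in place of 1245 and 1872.

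The third comparison set myeloid-like cells against progenitor-like cells, that is, the main immune population against the tumour cells around it. In tumour 4 the progenitor-like cells were again 312 cycling-like and 2 granule progenitor-like cells. Of the 76 members tested, 33 fell and 2 rose (limma with tumour as a block over 10410 genes). This stood against 63.5% of all genes called, 47.9% lower and 15.6% higher, so the members' 43.4% lower was near the background. The median difference of all genes was -0.48 on the log2(CPM + 10) scale and that of the members -0.36. Relative to the median gene the split turned over: 11 members were higher and 2 lower, and the split over all genes went from 1622 higher and 4989 lower to 2612 and 2378. A lower value in myeloid-like cells is a statement about the share of UMIs. Each of the 33 needs to be read against the shift of the median gene. The size of that shift, and which median lay lower, depended on the measure. With 1 CPM added in place of 10, the medians were -0.39 for members and -0.81 for all genes. Means of the deposited log2 values gave -0.25 and -0.08, and means of thinned cells -0.21 and -0.04. Without the detection filter they were -0.34 and -0.32.

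The counts by complex stand beside 47.9% of all genes lower and 15.6% higher. After centring, 2378 of the 10410 genes were lower and 2612 higher. Complexes I and V lay near that 47.9% before centring, and complexes II, III and IV had only 4, 8 and 11 tested members. Complex I had 18 of 36 tested members lower and 0 higher, with a median of -0.47, and 2 lower and 4 higher after centring. Complex V had 9 of 17 lower and 0 higher, with a median of -0.38, and 0 lower and 1 higher after centring. Complex IV had 3 of 11 lower and 1 higher. Complex III had 3 of 8 lower and 1 higher with a median of -0.03, and 0 lower and 3 higher after centring. In complex II, 0 of 4 passed (limma, 1 of 4 with an unadjusted p under 0.05) and the median was 0.02, while 2 of 4 were higher after centring. The differences between complexes were not tested.

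Ndufa12 fell most, from 525, 476, 482 and 569 CPM in progenitor-like cells of tumours 1 to 4 to 207, 195, 260 and 181 CPM in myeloid-like cells, a difference of -1.25 ± 0.16 (adjusted p = 3.54e-05). Ndufa4 fell from 1022, 1061, 1188 and 1630 CPM to 513, 482, 734 and 456 CPM, a difference of -1.15 ± 0.17 (adjusted p = 0.000108). Both fell without overlap between the groups, and both stayed lower after centring on the median gene. Ndufa5, an accessory subunit near the ubiquinone site, fell from 256, 247, 341 and 419 CPM to 145, 114, 215 and 117 CPM, a difference of -1.06 ± 0.19 (adjusted p = 0.000574). Ndufs4, an accessory subunit needed for a stable NADH-oxidising arm, fell from 206, 223, 198 and 239 CPM to 121, 105, 102 and 120 CPM, a difference of -0.90 ± 0.16 (adjusted p = 0.000466). Of the core subunits of that arm, Ndufv2 fell by 0.84 ± 0.19 (adjusted p = 0.00243) and Ndufv1, which binds NADH, by 0.82 ± 0.18 (adjusted p = 0.00209), while Ndufs1 did not pass (-0.36 ± 0.23, adjusted p = 0.187). In complex V, Atp5o, the stalk subunit that ties the catalytic head to the membrane part, fell by 0.85 ± 0.16 (adjusted p = 0.000683) and Atp5j, a coupling factor of the same stalk, by 0.83 ± 0.14 (adjusted p = 0.000270). After centring, Ndufa5, Ndufs4, Ndufv1, Ndufv2, Atp5o and Atp5j kept their direction but not their call, with adjusted p between 0.0541 and 0.186.

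Uqcrb, a small complex III subunit near the ubiquinone site (chromosome 13, 66900617 to 66905378), was 1 of the 2 members called higher. It rose from 253, 191, 185 and 238 CPM to 420, 438, 395 and 380 CPM, a difference of 0.89 ± 0.15 (adjusted p = 0.000373), with no overlap and a call that held in every alternative tried. The other riser, Cox6b2, the testis form of a complex IV subunit, was low in both classes, at 8.97, 4.66, 3.64 and 17.1 CPM against 17.8, 15.4, 45.2 and 18.9 CPM, a difference of 0.86 ± 0.29 (adjusted p = 0.0213). The 45.2 CPM of tumour 3 rests on 4 UMIs, and without that tumour the difference was 0.48 (adjusted p = 0.0433). The call was lost without tumour 2 (adjusted p = 0.0659) and with mean log2 values of thinned cells (adjusted p = 0.0735). Sdhb gave 212, 216, 452 and 255 CPM in myeloid-like cells against 214, 211, 205 and 183 CPM, a difference of 0.40 ± 0.19 that did not pass (adjusted p = 0.0931).

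**Figure D4:**
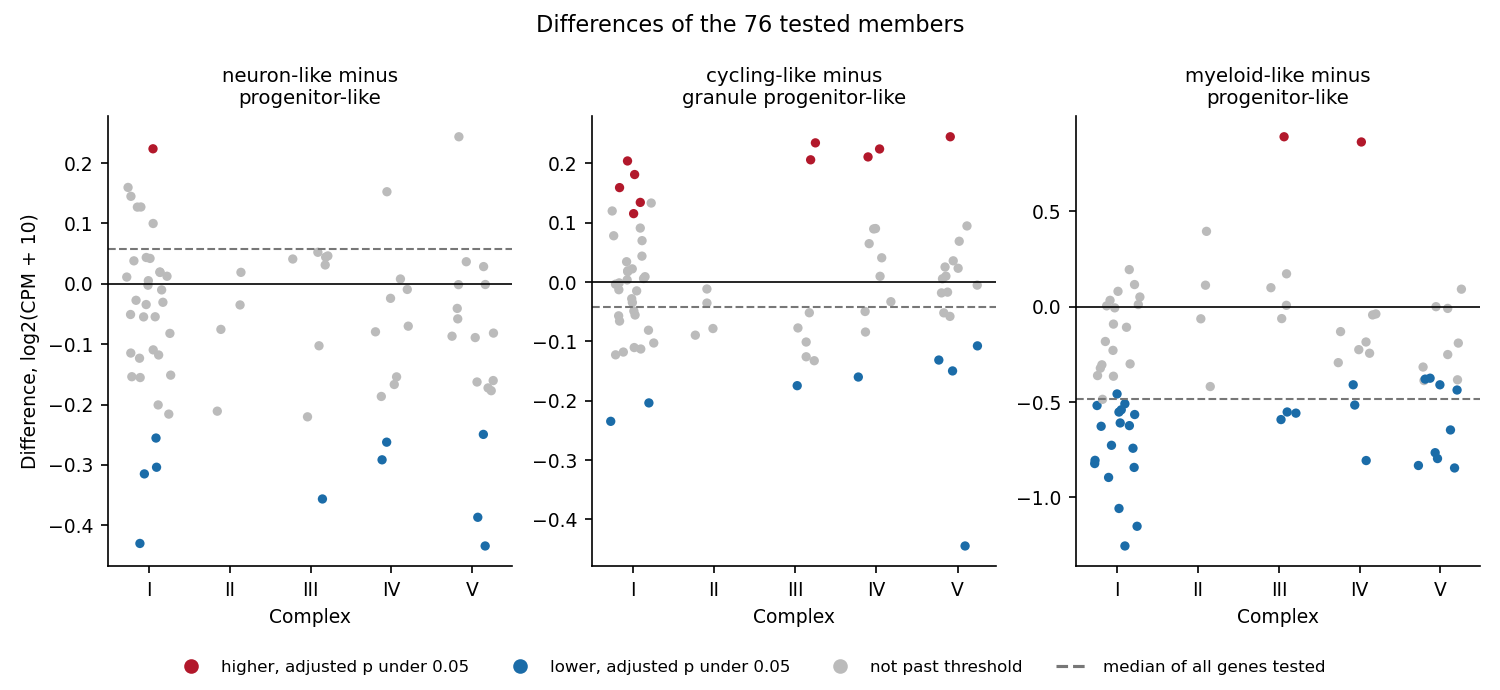
Difference of each of the 76 tested members on the log2(CPM + 10) scale in the 3 tested comparisons, by complex; red and blue mark members past the adjusted p threshold of 0.05, the dashed line is the median of all genes tested. In the right panel most of complexes I and V lie below 0 and around the dashed line, and Uqcrb and Cox6b2 are the points above 0.8.

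All 12 mitochondrial mRNAs tested fell in myeloid-like cells, with a median of -0.65, and 1 of 12 was lower after centring. Of 16 tricarboxylic acid cycle genes 9 fell and 0 rose, of 20 glycolysis genes 5 rose and 4 fell, and Slc25a4 fell by 2.00 ± 0.16 (adjusted p = 1.14e-06) while Slc25a5 did not pass (-0.10 ± 0.12, adjusted p = 0.477). Cytosolic ribosomal protein genes fell in 70 of 83 cases. The 12 myeloid-like cells of tumour 3 carried granule progenitor markers at 859 CPM against 189 to 355 CPM in the other tumours, and cycling markers at 1808 CPM against 94.7 to 281 CPM; their part in the result was not tested beyond leaving that tumour out. Without tumour 3, 47 members were called, 45 lower and 2 higher. Without tumour 1 the count was 23, without tumour 2 it was 22, and without tumour 4 it was 27. Over all 10410 genes, 6611 were called with every tumour and 7138 without tumour 3. Leaving out tumour 1, 2 or 4 gave 5625, 5177 and 6082.

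Neutrophils and lymphocytes were numerous only in tumour 4, so comparisons of the classes resembling them rest on 1 library and have no test. Intervals for them are exact 95% Poisson intervals and cover counting error only. In tumour 4, 377 neutrophil-like cells gave 30356 CPM over the 82 genes and 15038 CPM over the mitochondrial mRNAs, a ratio of 2.02, where the 461 myeloid-like cells gave 21037 and 20170 CPM, a ratio of 1.04. Of 74 members listed in all 4 libraries and at 20 CPM or more in either class, 6 were above a log2 ratio of 1 and 0 below -1, against 8.51% and 8.07% of 5192 genes. The median log2 ratio was 0.46 over the 80 listed members and 0.23 over the genes. Cox7a2 gave 1087 CPM (1037 to 1138) against 387 CPM (370 to 406), and Cox6a1 gave 1065 CPM (1015 to 1116) against 416 CPM (398 to 435). The others above 1 were Ndufa3, Ndufb7, Ndufs5 and Ndufa8. Some members went the other way with intervals apart, among them Ndufc2, Uqcrfs1, Sdhb, Cox7a2l and Ndufa4. Sdhb gave 168 CPM (149 to 189) against 255 CPM (241 to 270).

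The neutrophil-like class held 2 unlike clusters. The larger, 341 cells of tumour 4 led by Siglec5, Ccrl2 and Ccl3, gave 32429 CPM for the 82 genes and 13617 CPM for the mitochondrial mRNAs, a ratio of 2.38. The smaller, 36 cells led by the granule genes Ngp, Camp and Ltf, gave 12379 and 27362 CPM, a ratio of 0.452, with median depths of 4028 and 3787 UMIs. Neutrophil markers summed to 38239 CPM in the larger and 232760 CPM in the smaller, whose other genes therefore divide a smaller share of the UMIs. The ratio of nuclear to mitochondrial transcripts does not depend on that share.

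T and NK cell-like cells of tumour 4 (155 cells) gave 20450 CPM over the 82 genes against 31722 CPM in progenitor-like cells. Of 73 members, 17 lay below a log2 ratio of -1 and 0 above 1, against 25.7% and 13.5% of 5859 genes. The lowest were Ndufb2, at 111 CPM (89.6 to 137) against 384 CPM (361 to 408), Ndufc2, at 139 CPM (115 to 167) against 471 CPM (446 to 498), Ndufa4, at 528 CPM (479 to 580) against 1630 CPM (1583 to 1679), and Ndufa12, at 186 CPM (157 to 218) against 569 CPM (541 to 598). The 17 were 23.3% of the 73, near the 25.7% of all genes. Of the 17, 15 bore complex I, III or IV names, as do 37, 8 and 16 of the 82 members. Atp5o and Atp5g1 were from complex V. Ndufa6, an accessory complex I subunit, was higher at 377 CPM (336 to 421) against 272 CPM (253 to 292). The class includes cells led by immunoglobulin genes beside T cell genes, so it is not a pure population.

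The tissue forms of complex IV subunits marked small populations. Cox8b, the heart and muscle form of subunit VIII (chromosome 7, 140898945 to 140900446), was listed in tumour 1 alone. It gave 617 CPM in the 49 muscle-like cells, in 46 of which it had a UMI (93.9%, exact binomial 95% interval 83.1 to 98.7%), and 5.14 CPM in progenitor-like cells. In the largest cycling-like cluster of tumour 1, 10 of 122 cells had a UMI (8.20%), at a median depth of 17183 UMIs against 14226 in the muscle-like cells. Cox6a2, the muscle form of subunit VIa (chromosome 7, 128205435 to 128206387), gave 175 CPM in the muscle-like cells and 1.91 CPM in progenitor-like cells of tumour 1. The common forms were present in the same muscle-like cells, Cox8a at 1896 CPM and Cox6a1 at 867 CPM. Cox7a1, the muscle form of subunit VIIa, gave 19.98 CPM there, from 16 UMIs, against 4.43 CPM in progenitor-like cells.

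Beyond these isoforms, 9 of 73 members lay above a log2 ratio of 1 in muscle-like against progenitor-like cells of tumour 1 and 0 below -1, against 6.69% and 10.7% of 6368 genes. Ndufv3 gave 505 CPM (457 to 556) against 169 CPM (160 to 178), Atp5g3 gave 693 CPM (637 to 753) against 259 CPM (248 to 270) and Sdhd gave 342 CPM (303 to 385) against 126 CPM (118 to 134). Atp5g2, at 136 CPM (112 to 164) against 160 CPM (151 to 169), had overlapping intervals. Muscle markers summed to 11235 CPM in these cells and granule progenitor markers to 671 CPM.

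Cox6a2 was also found in a non-muscle population. A dendritic cell-like cluster led by Ly6d, Ccr9 and Siglech gave 760 CPM of Cox6a2 in tumour 4, with a UMI in 17 of 21 cells (81.0%, 58.1 to 94.6%), and 572 CPM in tumour 2, with a UMI in 4 of 11 cells (36.4%, 10.9 to 69.2%). The other dendritic cell-like clusters of tumour 4 gave 0.647 CPM (1 of 137 cells) and 0 UMIs in 44 cells, where 3 UMIs would be 4.85 CPM. In the main myeloid-like cluster of tumour 4, 11 of 434 cells had a UMI (2.53%), at a median depth of 10411 UMIs against 9086. Over the whole dendritic cell-like class of tumour 4, 0 of 73 members listed in all 4 libraries lay above a log2 ratio of 1 or below -1 against myeloid-like cells, where 3.14% and 5.79% of 4867 genes did. Cox6a2, which is not listed in tumour 3 and so not among the 73, lay above it, at 58.8 CPM (49.4 to 69.5) against 7.01 CPM (4.83 to 9.85), a log2 ratio of 2.02. Muscle markers were at or near 0 in the dendritic cell-like class, at 0 CPM in tumour 2 and 4.69 CPM in tumour 4. The common form Cox6a1 was present beside it in the same cluster, at 455 CPM in tumour 4 and 450 CPM in tumour 2.

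Cox6b2 was highest in astrocyte-like cells of tumour 4, at 241 CPM, with a UMI in 13 of 22 cells (59.1%, 36.4 to 79.3%), against 12.5% (38 of 305 cells) in the main cycling-like cluster of that tumour, at a median depth of 14207 and 6766 UMIs. In the astrocyte-like cells of tumours 1 and 3 it gave 7.22 and 13.4 CPM, and in those of tumour 2 there were 0 UMIs, where 3 would be 23.0 CPM. The astrocyte-like cells of tumour 4 also carried choroid plexus and ependyma markers at 20549 CPM, against 4.48 to 19.9 CPM in the other 3 tumours, and their part in the Cox6b2 level was not tested. The testis forms Cox7b2 and Cox8c were near absent: Cox7b2 had 6 to 19 UMIs per tumour, and Cox8c, listed in tumour 1 alone, had 0. Ndufa4l2, a paralogue of Ndufa4 induced by hypoxia, had 77 UMIs in tumour 1 and 5 in tumour 4.

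**Figure D5:**
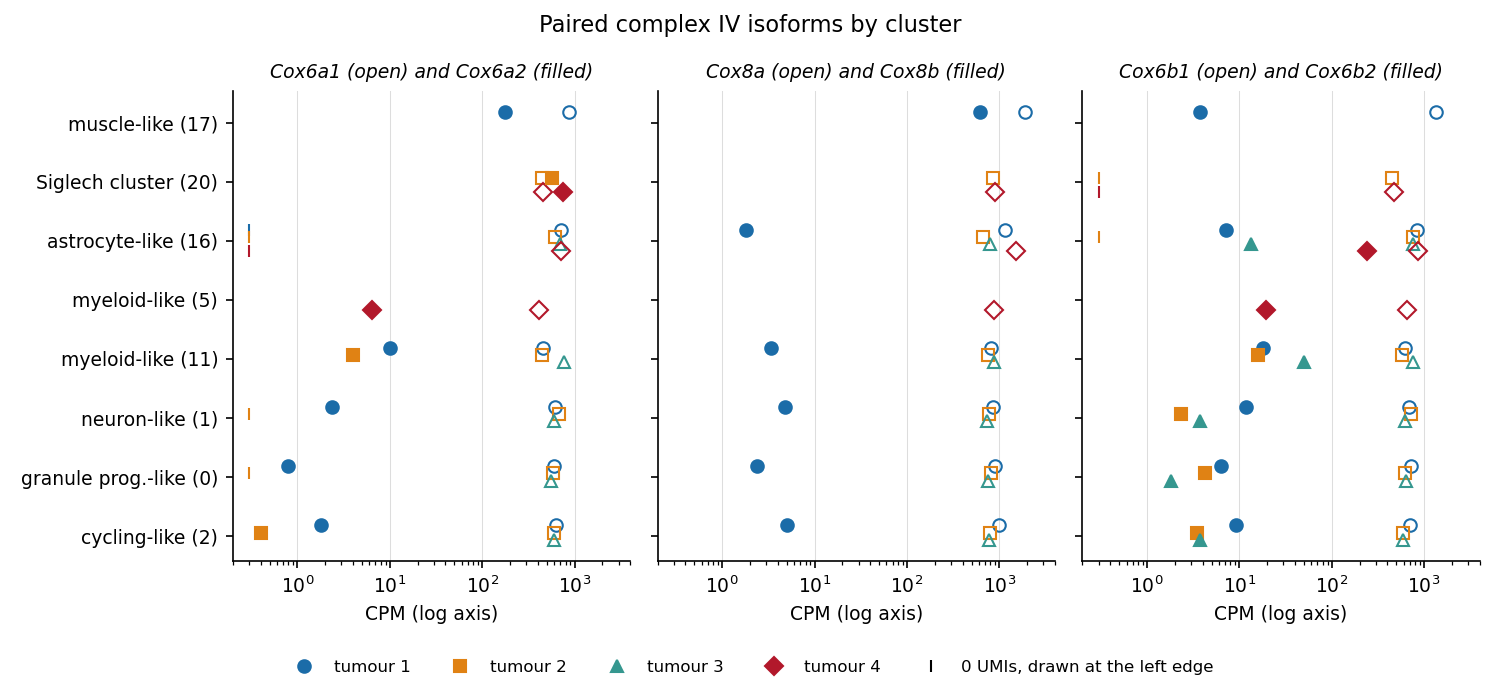
CPM (log axis) of the common form (open symbols) and the tissue form (filled symbols) of 3 complex IV subunits in 8 clusters, 1 symbol per tumour with at least 10 cells in the cluster; ticks at the left edge are 0 UMIs. Among the clusters drawn, Cox6a2 exceeds Cox6a1 only in the one led by Siglech, Cox8b exceeds 100 CPM in the muscle-like cluster, and Cox6b2 in the astrocyte-like cells of tumour 4.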

How the data were processed

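Each of the 4 libraries was 1 tumour. The deposited files held log2 values, log2(UMI count divided by the cell's size factor, plus 1), a form read from the values since no label states it; the submitters' processing notes name Cell Ranger, Seurat and the build mm10, with versions not given in the sources used here. UMI counts were recovered from the steps of each cell's values, with 100% of values whole within 0.001. The members and lists were chosen with earlier results of these data known.

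Cells were kept at 500 or more genes and at most 10% mitochondrial UMIs, which removed 0, and 100 likely doublets were removed by a simulated-doublet score at 0.8% per 1000 cells. Clustering used scanpy 1.11.5 and leidenalg 0.10.2 (1000 variable genes scaled within tumour, 30 components, 15 neighbours, resolution 1), with 312 genes, members included, kept out. Clusters were named from the marker lists, with a score threshold set after the clusters were seen, so class borders are rebuilt and not the authors' own. A cluster of cells with very high UMI counts stayed unnamed.

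UMIs were summed per tumour and class with at least 10 cells, scaled to CPM and tested as log2(CPM + 10) in limma 3.58.1 (R 4.3.3; trend, robust) with the tumour as a block, over genes that every library lists and that 5% or more of the cells of either class express. The block pairs the 2 classes taken from the same tumour's library. Benjamini-Hochberg adjustment was over all genes tested, with a threshold of 0.05. No count model was used, although UMI counts had been recovered. The procedure was tested on simulated data, for the neuron-like, cycling-like and myeloid-like comparisons in turn. True 1.25-fold changes were called for 12%, 30% and 0% of 50 genes, and 2-fold changes for 86%, 96% and 28%. At most 0.0308% of unchanged genes were called. The simulation changed only 50 genes at each fold, out of 9981, 9929 and 10410, with a noise level that was set and not taken from the data. In the data 32.5%, 31.4% and 63.5% of genes were called. The simulated rates therefore do not give the power or error of the tests reported. A difference that did not pass is no sign of equal levels. Replicates are tumours, and the block takes out the level of each tumour. The p-values therefore measure how the difference between 2 classes varied from tumour to tumour. This was over 4 tumours, or 3 in the cycling-like comparison. Summed UMIs are no measure of RNA per cell, and fewer cells of a type within a class and less RNA per cell cannot be told apart. Genes named are the up to 8 largest called differences per direction and comparison with 1 direction in every tumour, the 2 largest shares per complex, the Sdh genes and the tissue isoform sets; others named, including those in 1 library, by their spread or from shorter lists, were chosen after their values were seen. Values of 1 member are not reported here, though counts include it. Comparisons of T and NK cell-like with progenitor-like and of neutrophil-like with myeloid-like cells were planned but had 1 and 2 tumours with enough cells.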

Additional observations from a re-analysis of the deposited data

Results flagged for a closer look

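Of 130 groups of 4 tumours examined, 9 held a tumour far from the other 3 by Dixon's ratio at its 95% critical value, where chance gives about 5%. In 6 of them it was the myeloid-like class of tumour 3, which had 12 cells. There, complex I summed to 9015 CPM (others 6809 to 7094), complex II to 768 CPM (526 to 547), and Atp5j gave 520 CPM (398 to 414), Cox6b2 45.2 CPM (15.4 to 18.9), Ndufs5 249 CPM (168 to 182) and Ndufv2 237 CPM (125 to 138). In all of these the tumour 3 value lay above the other tumours. The same cells carried cycling markers at 1808 CPM and granule progenitor markers at 859 CPM, and the part of these in the values was not tested.

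Complex III over all cells was high in tumour 1, at 3169 CPM against 2590 to 2679. Cox5a was low in the neuron-like cells of tumour 3, at 365 CPM against 481 to 504, and Ndufs4 was high in those of tumour 2, at 267 CPM against 226 to 228.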

How the results depend on the processing

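The neuron-like comparison called 11 members, against 23 (0 higher, 23 lower) from means of the deposited log2 values, 7 from means of thinned cells and 0 with no replicate block (limma; 3 at an unadjusted p under 0.05); leaving out 1 tumour gave 3 to 13. The cycling-like comparison called 18, against 9 (8 higher, 1 lower) from means of deposited values, 12 (5 higher, 7 lower) from thinned cells and 0 with no replicate block (1 unadjusted); leaving out 1 tumour gave 9 to 18, with the balance of directions reversed at 16 without tumour 3, and keeping doublets gave 18 with 8 higher and 10 lower. The myeloid-like comparison called 35, against 13 (11 higher, 2 lower) after centring and 22 to 47 leaving out 1 tumour, and 31 with no replicate block. Over all genes, 3241, 3117 and 6611 calls became 879, 215 and 6298 with no replicate block. In the first 2 comparisons thinned cells gave 2105 and 1687, and means of deposited values 2262 and 1056. Other settings (a pseudocount of 1 CPM, no detection filter, finer clustering) kept each count of members within 1.5 times, and no called member named by the rule changed direction under any setting run. Members that were not called could: with means of deposited values Sdhb went from 0.02 to -0.09 in the neuron-like comparison, and in the cycling-like one Sdha went from -0.09 to 0.03, Sdhb from -0.01 to 0.07, Sdhc from -0.04 to 0.01 and Sdhd from -0.08 to 0.04. The planned T and NK cell-like and neutrophil-like tests gave no value under any setting. Thinning left 7 cells in the myeloid-like class of tumour 3. Detection at these depths limits Cox7b2, Cox8c and Ndufa4l2, which were not tested.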
